A study of Sus scrofa with 220 samples.

Results

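Cadherins, catenins, desmosome proteins and tight junction proteins hold the cells of an embryo together, and their genes are described here across 7 cell populations of the early pig embryo. The genes were chosen by name alone. A gene entry was taken if its Ensembl pig symbol begins with CDH or DSC and a digit, or with PCDH, DSG, PKP, CTNN, TJP or CLDN (leaving out 2 claudins that the rule excludes), or is DSP, JUP, OCLN or EPCAM. This gave 63 of 22840 entries, and 40 of them reached a level of more than 1 TPM (transcripts scaled to a fixed total per cell) in at least 3 of the 220 cells. The 40 kept genes are 11 of 16 cadherins, 4 of 11 protocadherins, 2 of 5 desmosomal cadherins, 6 of 6 desmosome plaque genes, 4 of 5 catenins, 7 of 13 tight junction membrane genes, 3 of 3 tight junction plaque genes, EPCAM, and CTNNBL1 and CLDND1, which share only letters with the catenins and claudins. Of the other 23 entries, 9 had no count in any cell. At the edge of the rule, CDH12, CDH17 and CLDN11 passed it with 3 cells, and DSC1, PCDH12, PCDH19 and PCDHB1 missed it with 2 cells. E-cadherin (CDH1), DSC2, DSC3, CLDN1, CLDN3 and CLDN5 were not analysed here.

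The 220 single-cell libraries came from 28 embryos flushed from inseminated crossbred sows of the Large White and Landrace breeds, with no treatment, allele or reporter in any group. They cover 4 stages and 7 populations: morula (M, 47 cells, 8 embryos, with 1 cell left out of the embryo values because its name gives no embryo), inner cell mass (ICM, 24 cells, 7 embryos) and trophectoderm (TE, 28 cells, 10 embryos) of the early blastocyst, epiblast (LB EPI, 25 cells, 4 embryos) and hypoblast (LB HYPO, 36 cells, 5 embryos) of the late blastocyst, and epiblast (Sph EPI, 48 cells, 4 embryos) and hypoblast (Sph HYPO, 12 cells, 3 embryos) of the spherical embryo. Trophectoderm was removed or not collected at the later stages, so TE stands for the early blastocyst alone. Stage, handling and litter cannot be told apart in comparisons between stages. Sex, which the authors inferred from Y chromosome genes, also differed: Sph HYPO cells were all male and LB HYPO cells mostly female. Sex was not a term in the tests. Each value below is the mean TPM of 1 embryo's cells of a population, a level per transcript length that allows genes to be compared, and means are given with the SD over embryos.

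Classical cadherins are membrane proteins that bind the same cadherin on the neighbouring cell, and the catenins tie their tails to actin. Desmosomes use their own cadherins, the desmogleins and desmocollins, and anchor them through plakophilins, plakoglobin and desmoplakin to keratin filaments. Tight junctions seal the space between epithelial cells with claudins and occludin on a scaffold of TJP proteins, and in mammalian embryos they form in the trophectoderm before the blastocyst cavity fills.

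The libraries held 1012604 to 5696373 counts in genes, with a median of 2006853.5, and the population medians lay between 1660325.5 for LB HYPO and 2235586.5 for Sph EPI. Epiblast and hypoblast markers followed the labels. The summed TPM of 7 matched epiblast markers was 661 to 2066 in LB EPI embryos and 28.3 to 117 in LB HYPO embryos, and that of 7 hypoblast markers was 11.2 to 86.1 and 856 to 3030. In the spherical embryo the epiblast markers summed to 837 to 1156 in EPI and 19.6 to 174 in HYPO. The library labelled TE from embryo E6-ER, a single cell, had no GATA2, GATA3, DAB2 or KRT8, whereas KRT8 was at 12177 to 40165 TPM in the other 9 TE embryos. That cell had 9 of the 40 genes over 1 TPM, against 14 to 21 in the other TE embryos, and the main TE values that it touches are given with and without it. The sum of 8 trophectoderm markers was also high in Sph HYPO, at 17308 to 43067 TPM against 2832 to 9049 in Sph EPI. Only 4 of the 8 passed 1 TPM in most Sph HYPO cells, and GATA2, TFAP2C and CDX2 did so in none. Keratins weigh heavily in this sum: in TE embryo AB, KRT8 and KRT18 were at 25912 and 11495 TPM, GATA2 and GATA3 at 97.9 and 113. DAB2, also in the sum, is listed by the authors among hypoblast genes. The part of these markers in the differences between Sph EPI and Sph HYPO was not tested.

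The genes were compared with a test on counts summed per embryo and population (edgeR quasi-likelihood, Benjamini-Hochberg adjusted over 14721 genes, called under 0.05). Across the 7 populations 24 of 40 genes were called, or 60%, beside 37.7% of all genes tested. A gene that passed the expression filter through a single population had to differ in this test, so the count is a description. The adjusted p ran from 6.31e-07 for CDH2 to 0.0498 for DSG3, and 6 genes (CDH2, CDH11, CLDN10, CLDN6, PCDH8 and OCLN) kept the call in all of the 51 other settings tried. With DESeq2 in place of edgeR the count was 11, beside 17% of all genes, and CDH3, CDH7, CDH9, CDH10, CDH17, CDH20, CTNND2, CLDN9, PCDH7 and PCDH17 were not among them. That list of lost genes is not complete. CDH4, CDH12, CLDN11 and DSG3 had a value in only 50 of the 51 other settings, and no DESeq2 call is claimed for them.

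Few of the genes passed in any single pair of populations. Between ICM and TE, 1 of 40 genes was called (CDH2), beside 0.754% of all genes, and the median log2 fold change of the 40 was -0.13 against 0.0 for all genes. Between LB EPI and LB HYPO 1 gene was called (OCLN, background 1.92%), and between Sph EPI and Sph HYPO 2 genes (CLDN10 and OCLN, background 1.13%). The later pair also had a shifted centre, with a median log2 fold change of 0.57 over all genes and 0.25 over the 40. M and TE differed in 1 gene (PKP3, background 0.808%). From ICM to LB EPI 1 gene was called (PCDH8, background 2.91%), and from ICM to Sph EPI 7 genes, beside 6.73% of all genes in either direction. All 7 were higher in Sph EPI, the direction in which 4.54% of all genes were called. CDH9 and CDH11 passed the expression filter through Sph EPI, with 21 of 22 and 11 of 12 of their cells over 1 TPM. Their direction was therefore fixed by the filter, and CLDN9, PCDH8 and PCDH17 had no count in ICM. The count of 7 is a description too. The comparisons that involve ICM share its 7 embryos, and those that involve Sph EPI share its 4.

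In 4 comparisons edgeR called none of the 40 genes. For M against ICM (background 2.45%) 11 genes (27.5%) had an unadjusted p under 0.05, as had 23.4% of all genes. DESeq2 called 3 (8.19% of all genes) and limma 2 (4.52%). LB EPI against Sph EPI (background 0.156%) had 6 such genes (15%, against 13.6% of all), and DESeq2 (5.62% of all genes) and limma (0.659%) each called 1. LB HYPO against Sph HYPO (background 0.163%) also had 6 (15%, against 9.52% of all), and DESeq2 called 2 (2.28% of all genes) and limma 0 (0.163%). The test of whether the EPI and HYPO difference changed from the late blastocyst to the spherical embryo (background 0.0408%) had 4 (10%, against 10.8% of all), and DESeq2 called 3 (3.67% of all genes) and limma 1 (1.16%).

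**Figure D1:**
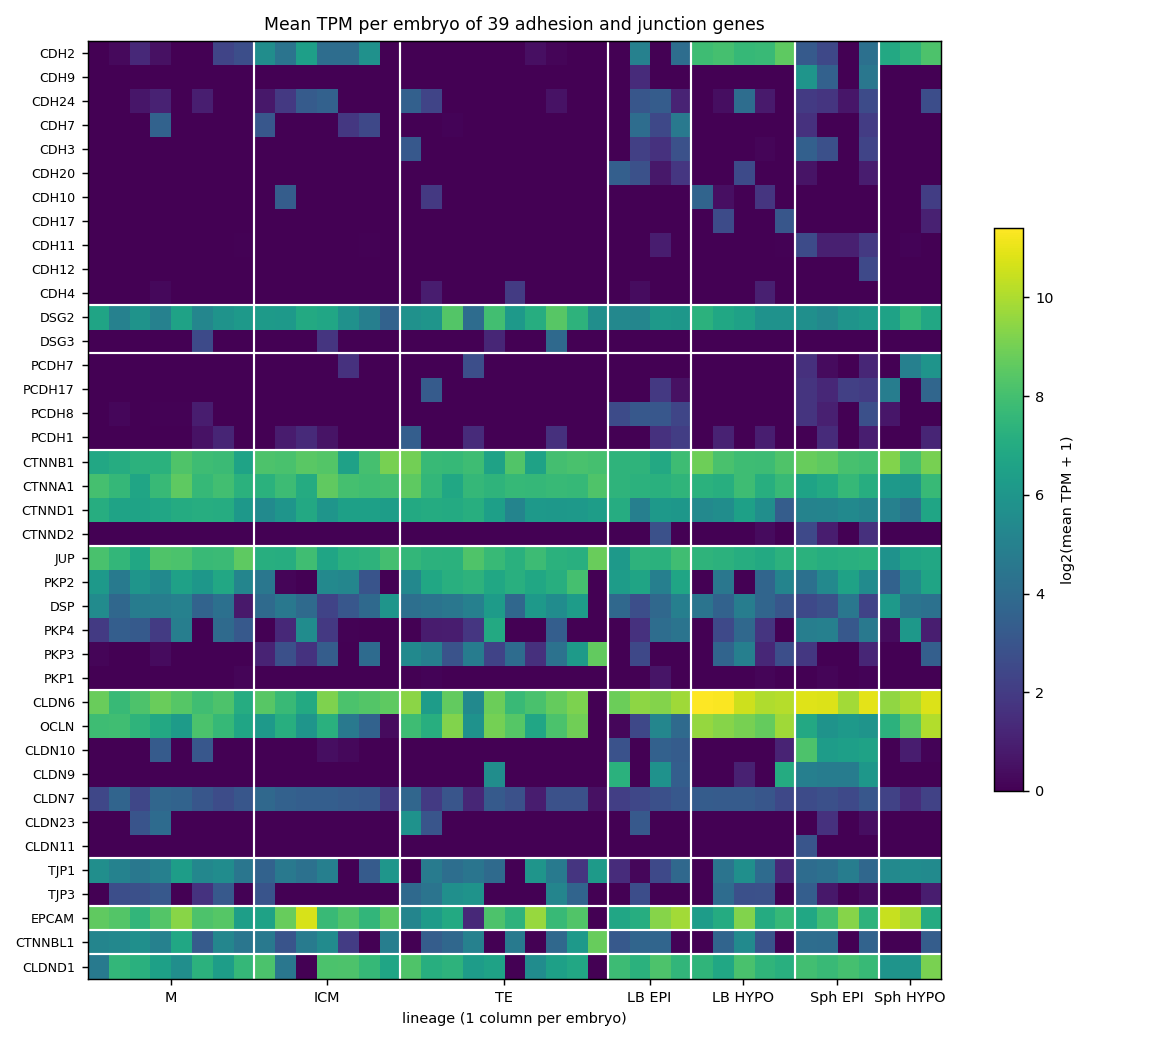
Expression of 39 of the kept adhesion genes (rows, grouped by role) in each embryo (41 columns, grouped into the 7 populations), as log2(mean TPM + 1) from dark (0) to bright. CLDN6, the catenins CTNNB1 and CTNNA1 and JUP are bright in nearly all columns, CDH2 is bright in the 8 hypoblast columns, most cadherins and protocadherins are dark, and in the last TE column (E6-ER) CLDN6, OCLN and EPCAM are at 0.

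N-cadherin (CDH2), a classical cadherin of mesenchymal and neural cells, had the widest span among the cadherins. It was highest in hypoblast, at 257 ± 71.6 TPM in LB HYPO (n = 5 embryos) and 196 ± 93.3 in Sph HYPO (n = 3). ICM followed at 33.9 ± 29.7 (n = 7), then LB EPI at 11.7 ± 14.9 (n = 4), Sph EPI at 7.61 ± 7.49 (n = 4), M at 1.49 ± 2.19 (n = 8) and TE at 0.0503 ± 0.116 (n = 10). Neighbours in this order overlapped in their embryo values apart from Sph HYPO and ICM, whose nearest embryos were at 118 and 86.4. Every hypoblast cell had CDH2 over 1 TPM, 36 of 36 and 12 of 12. The share was 14 of 24 cells in ICM (58.3%, exact 95% interval 36.6 to 77.9), 22 of 48 in Sph EPI (45.8%), 7 of 25 in LB EPI (28%) and 6 of 47 in M. No TE cell of 28 passed. With 3 cells as the limit for a count of 0, a share of up to 10.7% is allowed (exact 95% interval up to 12.3%). Both limits treat cells as independent, although 9 of them came from embryo AB.

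CDH2 was higher in ICM than in TE. The ICM embryos read 46.6 (AA), 20.1 (AC), 86.4 (AD), 15.8 (AE), 15.7 (AF), 53.0 (AG) and 0 (AI) TPM. In TE 7 of 10 embryos were at 0 and the highest, AG, was at 0.364. Within the 7 embryos that gave both populations, ICM was higher in 6 and the values were equal, at 0, in AI. The groups overlap only through that embryo. Summed over cells there were 3555 counts in ICM and 3 in TE, a depth-corrected ratio of 1324 with a 95% counting interval of 453 to 6423. Counting intervals, here and below, cover the counting of reads only, not the spread over cells or embryos. The fitted log2 fold change was 9.62 ± 1.51 (SE; edgeR adjusted p = 0.00278), and 9.53 (adjusted p = 0.00145) without the cells of less certain embryo, E6-ER included. With the embryo as a block the adjusted p was 0.0465. Within the first 4 library pools the log2 fold change was 8.79 (adjusted p = 0.0794) and within the last 4 it was 11.30 (adjusted p = 0.11), and neither was called. Hypoblast markers summed to 237 to 735 TPM in ICM embryos and 28.3 to 322 in TE embryos, and their part in this difference was not tested.

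Epiblast and hypoblast embryos did not overlap in CDH2 at either stage, but the difference did not pass the edgeR test. In the late blastocyst the EPI embryos were at 0 (AN), 31.1 (AO), 0 (AP) and 15.9 (AQ) TPM and the HYPO embryos at 233 (AL), 266 (AM), 196 (AN), 212 (AO) and 376 (AP). The log2 fold change of EPI over HYPO was -4.42 ± 1.48 (edgeR adjusted p = 0.176), with EPI lower in 3 of 3 embryos that gave both, and limma on log2(TPM + 1) gave an adjusted p of 0.00309. In the spherical embryo EPI read 8.32 (C), 4.52 (D), 0 (E) and 17.6 (F), and HYPO 118 (C), 169 (E) and 299 (F). There the log2 fold change was -4.49 ± 1.3 (edgeR adjusted p = 0.163), while DESeq2 (adjusted p = 0.0238) and limma (0.0198) called it. The change of this difference between the stages was -0.16 ± 1.96 on the log2 scale (edgeR adjusted p = 1), an estimate whose error spans a wide range on both sides of 0.

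Along the other steps edgeR did not call CDH2 in the fit of each pair. The log2 fold changes were -4.42 ± 1.39 for M over ICM (edgeR adjusted p = 0.0889) and 5.16 ± 1.74 for M over TE (adjusted p = 0.0896). DESeq2 (adjusted p = 0.00835 and 0.0230) and the edgeR model of all 7 populations (0.0472 and 0.0209) called both, and without the cells of less certain embryo the edgeR adjusted p for M over TE was 0.101. The difference from TE rests on 302 against 3 counts, a ratio of 58.6 with a counting interval of 19.9 to 286. They were 1.41 ± 1.67 for ICM over LB EPI (adjusted p = 0.76), 1.88 ± 1.46 for ICM over Sph EPI (0.483), 0.54 ± 2.02 for LB EPI over Sph EPI (0.998) and 0.27 ± 0.42 for LB HYPO over Sph HYPO (0.948). The M embryos lay between 0 and 5.66 TPM, with 3 of 8 at 0.

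The other cadherins had means of at most 23.2 TPM, and CDH3, CDH7, CDH9, CDH11 and CDH20 had their highest means in epiblast. P-cadherin (CDH3) was at 0 in every M, ICM and Sph HYPO embryo, at 2.94 ± 2.58 TPM in LB EPI and at 5.04 ± 4.25 in Sph EPI (7-population adjusted p = 0.0035 with edgeR, 0.641 with DESeq2). In Sph EPI 8 cells had both CDH2 and CDH3 over 1 TPM, 14 had CDH2 alone, 8 had CDH3 alone and 18 had neither. CDH9, a type II cadherin known from neurons, was at 59.9 (C), 10.6 (D), 0 (E) and 22.3 (F) TPM in Sph EPI and over 1 TPM in 21 of 48 cells there. It had no count in M, ICM, TE or either hypoblast, and in LB EPI only embryo AO had any (1.64 TPM, 1 cell). CDH9 was higher in Sph EPI than in ICM, with 5213 counts against 0 (edgeR adjusted p = 0.0226). It passed the expression filter through Sph EPI, so this direction was fixed and the p-value is a description. With ICM set at a floor of 3 counts over the group the ratio is 798-fold. Such floors, here and below, are no lower limit over cells or embryos. The call was lost without Sph EPI embryo C (adjusted p = 0.0699) or F (0.0536) and within the first 4 (0.0561) and last 4 (0.083) pools.

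CDH11, a type II cadherin of mesenchyme, was also higher in Sph EPI than in ICM. Like CDH9 it passed the expression filter through Sph EPI, so this direction was fixed and its p-values and ratio are descriptions. The Sph EPI embryos read 5.11, 0.979, 0.984 and 2.72 TPM and no ICM embryo exceeded 0.0485. The counts were 1636 and 2, a ratio of 376 (counting interval 104 to 3105; edgeR adjusted p = 0.00986), and within the library pools the adjusted p was 0.0541 and 0.224. In no other population did the mean exceed 0.219 TPM, the LB EPI level.

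CDH7 and CDH20, both type II cadherins, peaked in LB EPI at means of 11 ± 10.8 and 4.83 ± 4.15 TPM. CDH7 was at 0 in all 8 hypoblast embryos. Against ICM, CDH20 had 325 counts in LB EPI and 0 in ICM (edgeR adjusted p = 0.0643, and 0.043 in the model of all 7 populations), and DESeq2 called it (adjusted p = 3.8e-05). CDH7 in ICM over TE, with 429 against 1 counts, was not called either (adjusted p = 0.0852, and 0.0922 without E6-ER and the other cells of less certain embryo).

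The rest of the cadherins came from few cells. CDH10, CDH12, CDH17 and CDH4 were called across the 7 populations, yet each passed 1 TPM in 3 to 6 cells in all, and CDH24 (not called) was spread over every population at means of 0.339 to 4.39. Of the summed TPM of the 11 kept cadherins, CDH2 held 96.3% in LB HYPO, 98.4% in Sph HYPO and 83.5% in ICM. E-cadherin was not analysed and is in none of these sums, so they are not shares of all cadherins. In LB EPI the share of CDH2 was 33%, beside 30.9% for CDH7, and without embryo AO these shares were 20.7% and 36.7%. CDH9 led in Sph EPI with 52.9%, against 17.4% for CDH2.

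**Figure D2:**
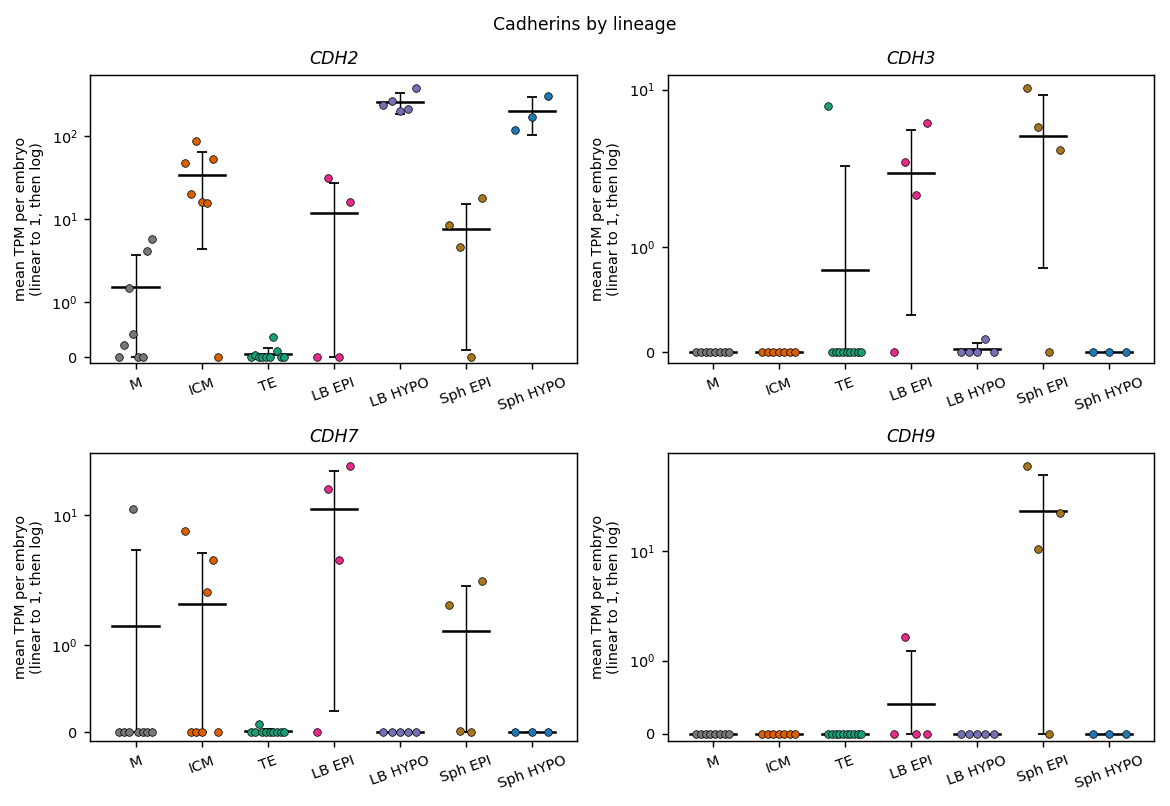
Cadherin expression by embryo for CDH2, CDH3, CDH7 and CDH9. Each point is the mean TPM of 1 embryo's cells (axis linear up to 1, then logarithmic), bars are means and whiskers the SD over embryos, stopped at 0; all 8 hypoblast embryos lie between 118 and 376 TPM for CDH2, and CDH9 is above 0 in 3 Sph EPI embryos and 1 LB EPI embryo.

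The catenins, which carry the link from cadherin to actin, were present nearly everywhere. CTNNA1 (α-catenin) had means of 113 to 236 TPM, CTNNB1 (β-catenin, also the effector of Wnt signalling) at least 173, and CTNND1 (p120-catenin, which stabilises cadherins at the membrane) 36.1 to 112. The lowest share of cells with CTNNB1 over 1 TPM was in TE, 25 of 28. CTNNB1 was called across the 7 populations (adjusted p = 0.0166), with its lowest mean in LB EPI (173 ± 46.4) and its highest in Sph HYPO (embryos at 600, 264 and 534). CTNND1 was called there by a narrow margin (0.0488) and lost the call in 36 of 51 other settings, and CTNNA1 did not pass (0.504). From LB EPI to Sph EPI the log2 fold change of CTNNB1 (LB over Sph) was -0.97, with an edgeR adjusted p of 0.222. CTNND2, the catenin of neural tissue, had no count in M, ICM and TE and passed 1 TPM in 7 cells, 5 of them Sph EPI. CTNNBL1, a splicing-associated protein, had its 431 TPM maximum in the E6-ER cell.

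Desmoglein 2 (DSG2), the desmosomal cadherin of simple epithelia, had means of 52.5 to 148 TPM. It made up at least 99.0% of the summed TPM of the 2 kept desmosomal cadherins in every population. DSC2 and DSC3 were not analysed and are not in that sum. Plakoglobin (JUP), which serves both desmosomes and adherens junctions, was over 1 TPM in all 220 cells, at means of 90.0 to 246. Desmoplakin (DSP), the keratin anchor, had means of 9.07 to 36.7. None of these was called across the 7 populations (adjusted p 0.0634 for DSG2, 0.0639 for JUP and 0.477 for DSP). DSG3 was called (0.0498) from 5 cells of M, ICM and TE, and lost the call in 35 of 50 other settings.

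PKP3, a plakophilin of epithelial desmosomes, was higher in TE than in M. In M 6 of 8 embryos were at 0 and the others at 0.0993 (ER) and 0.248 (U) TPM. In TE the lowest embryo was at 1.99, the median at 22.5 and the highest at 400, so the groups did not overlap. The highest was the E6-ER cell, and without it the TE mean was 24.3 ± 22.9 TPM with a maximum of 74.3. PKP3 exceeded 1 TPM in 23 of 28 TE cells and 1 of 47 M cells. The log2 fold change of M over TE was -9.32 ± 1.54 (edgeR adjusted p = 0.00303, 10 against 4719 counts), and -8.21 (adjusted p = 0.00418) without replicate E6-ER. Within the first 4 pools it was -6.81 (adjusted p = 0.246) and within the last 4 it was -11.19 (0.00488). In ICM, where embryos read 0 to 14.8, the comparison with M gave -5.76 (adjusted p = 0.0966).

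PKP2, the most widespread plakophilin, had its highest mean in TE (123 ± 71.3 TPM, and 136 ± 60.3 without E6-ER) and its lowest in LB HYPO (13.6 ± 14.6). It was lower in ICM than in TE in 7 of 7 embryos with both, but the log2 fold change of -2.93 ± 1.23 was not called (edgeR adjusted p = 0.161, and 0.123 without the cells of less certain embryo). PKP4 exceeded 1 TPM in 42 of 48 Sph EPI cells and in 3 of 24 (ICM) to 17 of 47 (M) elsewhere, and PKP1 was near 0 throughout. Neither was called.

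**Figure D3:**
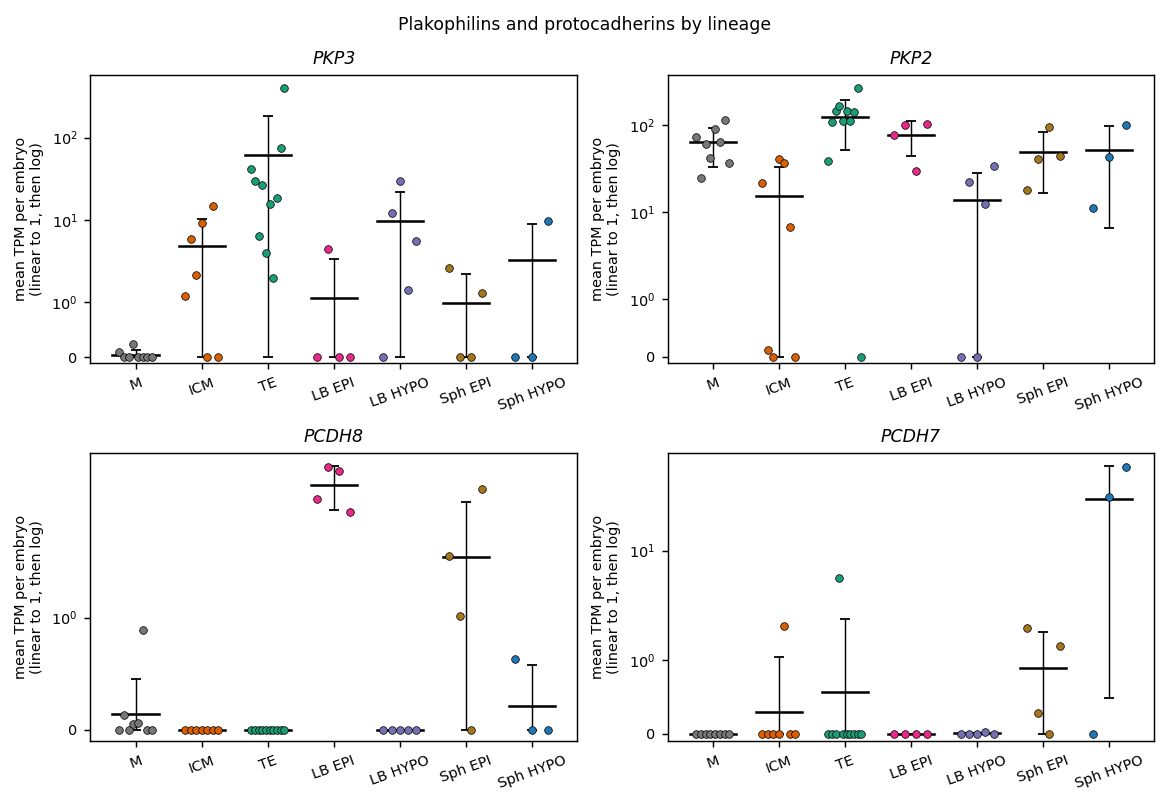
Expression by embryo of the plakophilins PKP3 and PKP2 and the protocadherins PCDH8 and PCDH7. Each point is the mean TPM of 1 embryo's cells (axis linear up to 1, then logarithmic), with means as bars and the SD as whiskers stopped at 0; all 10 TE embryos lie above all M embryos for PKP3, and the 4 LB EPI embryos stand at 4.23 to 7.90 TPM for PCDH8 where ICM, TE and LB HYPO are at 0.

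The 7 kept tight junction membrane genes were led by claudin 6 (CLDN6), a claudin of early embryonic epithelia. It had 51.7% to 89.0% of their summed TPM in every population. CLDN1, CLDN3, CLDN5 and the claudins that the rule excludes are not in that sum, so these are not shares of all claudins. The CLDN6 means were lowest in the first stages, 298 ± 107 TPM for M, 322 ± 143 for ICM and 313 ± 230 for TE (347 ± 214 without E6-ER). Later means were 670 ± 174 for LB EPI, 1780 ± 802 for LB HYPO, 1617 ± 487 for Sph EPI and 1173 ± 564 for Sph HYPO. All cells outside TE passed 1 TPM, and 19 of 28 did in TE, the E6-ER cell being at 0. CLDN6 was higher in Sph EPI than in ICM. The Sph EPI embryos read 1843 (C), 1758 (D), 898 (E) and 1970 (F), all above the highest ICM embryo at 578. The log2 fold change of ICM over Sph EPI was -2.56 ± 0.37 (edgeR adjusted p = 0.000721), and it was called in each of 19 other settings, within both sets of pools too. The step from LB EPI to Sph EPI was not called (log2 fold change of LB over Sph -1.23, adjusted p = 0.196), nor was LB EPI against LB HYPO (-1.37, adjusted p = 0.0605).

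Occludin (OCLN), a membrane protein of the tight junction strand, was lower in epiblast than in hypoblast at both stages. The LB EPI embryos read 0.140 (AN), 4.52 (AO), 37.1 (AP) and 14.1 (AQ) TPM, and the LB HYPO embryos 781 (AL), 651 (AM), 527 (AN), 423 (AO) and 865 (AP), with no overlap and with EPI lower in 3 of 3 embryos with both. Over 1 TPM were 6 of 25 LB EPI cells (24%) and 36 of 36 LB HYPO cells. The log2 fold change of EPI over HYPO was -5.32 ± 1.02 (edgeR adjusted p = 0.0175). It was -6.65 (adjusted p = 0.0948) with the embryo as a block, -5.15 (0.0574) without LB EPI embryo AQ, and -5.58 (0.14) and -4.98 (0.0594) within the first and last 4 pools.

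In the spherical embryo the OCLN values of EPI were 118 (C), 57.7 (D), 71.3 (E) and 58.5 (F), and those of HYPO 161 (C), 358 (E) and 1100 (F). The groups did not overlap and EPI was again lower in 3 of 3 embryos. The log2 fold change was -2.87 ± 0.59 (edgeR adjusted p = 0.0471), close to the threshold. It did not pass with the embryo as a block (-2.43, adjusted p = 0.286), with limma (adjusted p = 0.141), in the model of all 7 populations (0.303), within the first (0.155) or last 4 pools (0.262), or without EPI embryo C (0.0642), D (0.098), E (0.146) or F (0.0909) or HYPO embryo E (0.0622) or F (-1.75, adjusted p = 0.0773). In earlier populations OCLN was at 178 ± 74.2 TPM in M, 65.8 ± 61.0 in ICM and 276 ± 207 in TE (307 ± 194 without E6-ER), and exceeded 1 TPM in 47 of 47 M cells.

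Claudin 10 (CLDN10), a claudin that forms ion-selective pores, was found mainly in spherical epiblast. The Sph EPI embryos read 299 (C), 76.8 (D), 84.4 (E) and 93.1 (F) TPM and 38 of 48 cells passed 1 TPM (79.2%). LB EPI embryos read 6.27, 0, 10.7 and 9.08 with 3 of 25 cells over 1 TPM, no TE embryo had a count, and Sph HYPO embryos read 0, 0.871 and 0.0871. Against ICM there were 9600 counts in Sph EPI and 2 in ICM, a ratio of 2204 (counting interval 610 to 18206; edgeR adjusted p = 0.000155), and the call held in each of 19 other settings. Against Sph HYPO, with 3 counts, the counting interval of the ratio was 243 to 3440 and the log2 fold change 8.71 ± 1.62 (adjusted p = 0.0296). That call was lost with the embryo as a block (9.14, adjusted p = 0.171), in the model of all 7 populations (0.287), within the last 4 pools (0.408) and without any one EPI embryo (C 0.151, D 0.0618, E 0.0744, F 0.0756). From LB EPI to Sph EPI the log2 fold change (LB over Sph) was -3.59, not called (adjusted p = 0.348). In M, where 2 embryos had 8.76 and 7.49 TPM and the others 0, the comparison with TE was not called (adjusted p = 0.0896, and 0.0978 without the cells of less certain embryo).

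CLDN9 shares close sequence with CLDN6, so how reads divide between these genes is uncertain. It was higher in Sph EPI (29.4, 27, 26.8 and 63.9 TPM) than in ICM, where it had no count (1208 against 0 counts, 185-fold over the floor of 3 counts, edgeR adjusted p = 0.0201). The adjusted p was 0.0503, 0.0501 and 0.0687 without Sph EPI embryo C, D and F, and 0.0701 and 0.15 within the pools. Its highest embryo was LB EPI AN at 156 TPM, and LB EPI against ICM was not called (adjusted p = 0.0877). CLDN7, known from simple epithelia, had means of 3.11 to 9.01 in all populations (7-population adjusted p = 0.934). CLDN23 and CLDN11 passed 1 TPM in 8 and 3 cells.

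Of the scaffold genes of the tight junction plaque, TJP1 (ZO-1), which joins claudins to actin, had means of 5.01 ± 5.89 TPM in LB EPI to 43 ± 2.36 in Sph HYPO, and it was not called across the populations (adjusted p = 0.536). Its Sph HYPO embryos lay between 40.6 and 45.4, above every Sph EPI embryo (13.0 to 27.8), but the log2 fold change of Sph EPI over Sph HYPO was -1.42 ± 0.63 (edgeR adjusted p = 0.325). TJP3, a scaffold of epithelial tight junctions, had its highest mean in TE (18.7 ± 21.5, and 20.8 ± 21.7 without E6-ER) and was not called either (0.318). In ICM only 1 of 7 embryos had any TJP3.

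**Figure D4:**
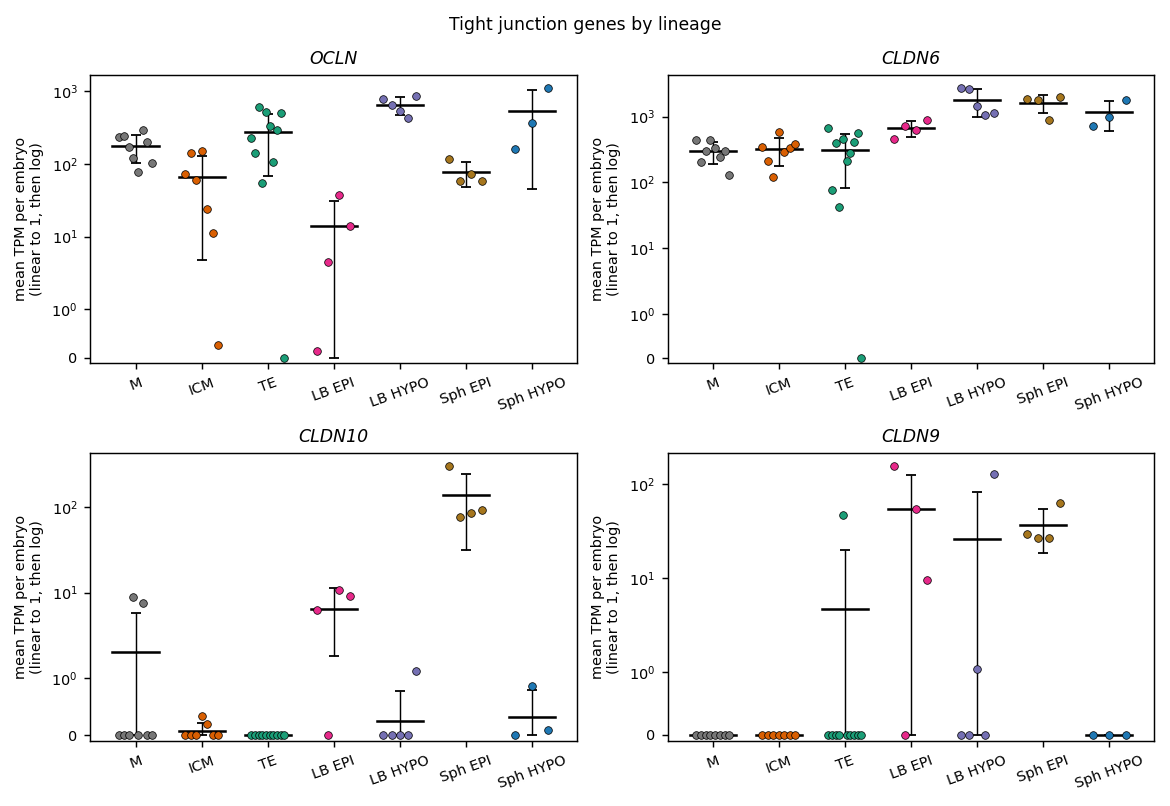
Tight junction expression by embryo for OCLN, CLDN6, CLDN10 and CLDN9. Each point is the mean TPM of 1 embryo's cells (axis linear up to 1, then logarithmic), bars are means and whiskers the SD stopped at 0; OCLN in LB EPI is at most 37.1 TPM while every LB HYPO embryo is at 423 or more, and CLDN10 is at 76.8 TPM or more in all 4 Sph EPI embryos.

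The protocadherins are a branch of the cadherin family without the usual catenin link. PCDH8, related to the paraxial protocadherin of gastrulating embryos, was at 5.06 (AN), 7.90 (AO), 7.47 (AP) and 4.23 (AQ) TPM in LB EPI and had no count in ICM, TE and LB HYPO. LB EPI was higher than ICM, with 874 counts against 0, at least 300-fold (edgeR adjusted p = 0.0288). The adjusted p rose to 0.0506 without ICM embryo AA, to 0.0647, 0.0871 and 0.0644 without LB EPI embryo AO, AP and AQ, and to 0.135 and 0.237 within the pools. Against LB HYPO, with the same 874 counts against 0, it was 0.0545. Sph EPI, at 2.31, 1.02, 0 and 5.84 TPM, was also higher than ICM (1126 against 0 counts, 172-fold over that floor, edgeR adjusted p = 0.0484). That call was lost in 14 of 19 other settings, with an adjusted p of up to 0.221.

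PCDH17 was higher in Sph EPI than in ICM as well. The Sph EPI embryos read 2.26, 1.44, 3.48 and 3.03 TPM and ICM had no count (1281 against 0 counts, 196-fold over the floor of 3 counts, edgeR adjusted p = 0.0153). It reached 0.051 without Sph EPI embryo F and 0.0952 and 0.105 within the pools. In Sph HYPO the PCDH17 values were 27.7 (C), 0 (E) and 12.4 (F), so that 1540 counts stood against 0 in LB HYPO, but this was not called (adjusted p = 0.189). PCDH7 gave the largest protocadherin level, 0 (C), 30.6 (E) and 58.3 (F) TPM in Sph HYPO, with 2493 counts against 1 in LB HYPO (adjusted p = 0.0807). In TE all PCDH17 counts came from embryo AB (8.72 TPM), and M against TE was not called (adjusted p = 0.0896, and 0.0978 without the cells of less certain embryo). PCDH1 stayed at means of 0.221 to 1.34.

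EPCAM, an adhesion molecule of epithelial and pluripotent cells, was high and variable, at means of 203 ± 239 TPM in TE (225 ± 242 without E6-ER) to 818 ± 645 in Sph HYPO, and was not called across the populations (adjusted p = 0.469). Embryos of a population spanned wide ranges, 94.0 to 1685 in ICM and 130 to 1409 in Sph HYPO. The log2 fold change of LB HYPO over Sph HYPO was -2.02, not called (edgeR adjusted p = 0.47). The genes with the smallest p for a change of the EPI and HYPO difference between the stages were PCDH17 (adjusted p = 0.313), CLDN6 (0.335) and EPCAM (0.387), and none was called.

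**Figure D5:**
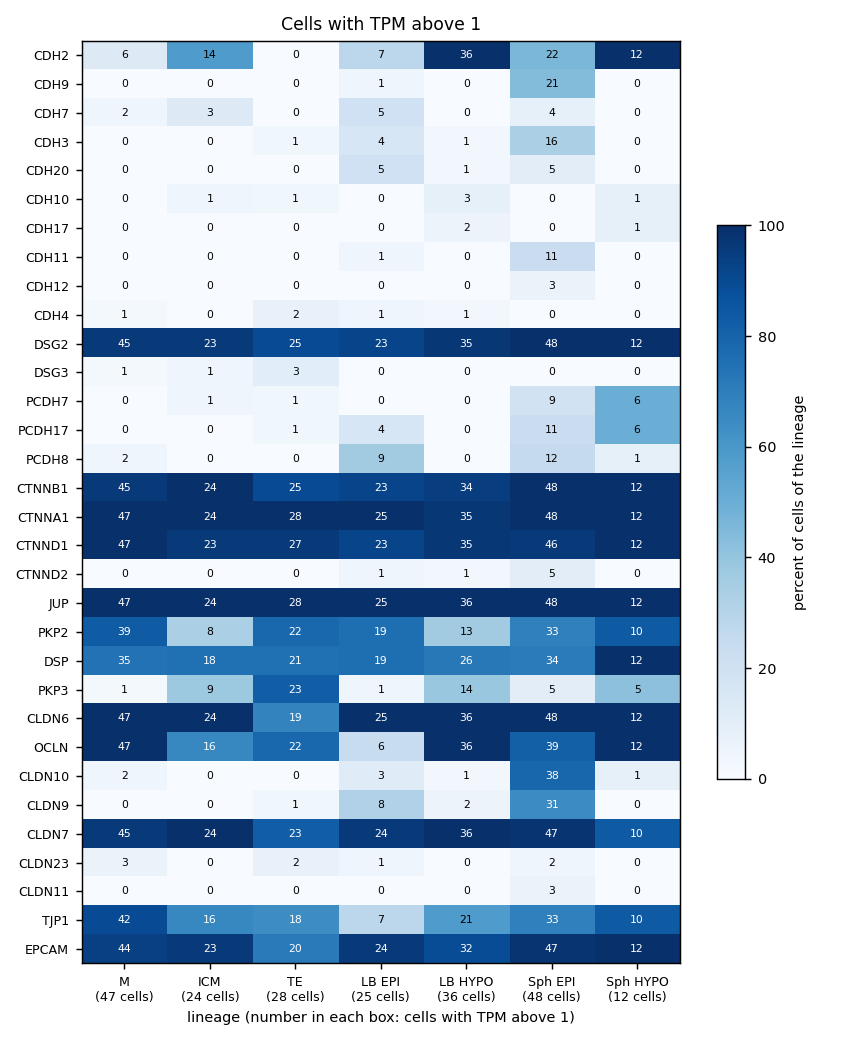
Percentage of cells over 1 TPM for 32 of the adhesion genes (rows) in the 7 populations (columns). JUP fills every column at 100%, CDH2 stands at 100% in both hypoblast columns and 0% in TE, and CLDN10 stands at 79.2% in Sph EPI with at most 12% elsewhere.

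Other genes of the junction pathway were taken from fixed lists, and their counts across the 7 populations stand beside the 37.7% of all genes called in that test. Their differences between pairs come from the reported edgeR fit alone. Other settings are not given for them, apart from PARD6B without the cells of less certain embryo. Of 10 other tight junction genes 4 were called (JAM3, MPDZ, MAGI1 and F11R). F11R, a junctional adhesion molecule, was higher in Sph EPI (550 ± 119 TPM) than in ICM (86.0 ± 64.6), with a log2 fold change of ICM over Sph EPI of -2.97 ± 0.48 (edgeR adjusted p = 0.00187). JAM3, of the same family, had no count in ICM and was higher in LB EPI (37.1 ± 14 TPM, adjusted p = 0.0242) and in Sph EPI (18.4 ± 21.2, adjusted p = 0.0215).

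Of 14 polarity genes 3 were called across the 7 populations (PARD6B, DLG2 and DLG4). PARD6B, a component of the apical Par complex, was at 237 ± 69.7 TPM in M, 60.4 ± 31.2 in ICM and 195 ± 109 in TE. It was higher in M than in ICM (log2 fold change 2.05 ± 0.32, edgeR adjusted p = 0.00132), lower in ICM than in TE (-1.81 ± 0.42, adjusted p = 0.0462, and 0.0215 without the cells of less certain embryo) and lower in Sph EPI (20.8 ± 7.14 TPM) than in Sph HYPO (322 ± 154, adjusted p = 0.00426). DLG2 was higher in Sph EPI than in ICM (2528 against 0 counts, adjusted p = 0.0318).

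Of 7 actin linkers 5 were called across the 7 populations (EZR, RDX, ZYX, MSN and VCL). Radixin (RDX), which tethers membrane proteins to actin, was at 128 ± 24.5 TPM in LB EPI and 563 ± 102 in LB HYPO (log2 fold change -2.27 ± 0.32, edgeR adjusted p = 0.00298). Moesin (MSN), of the same family, was higher in ICM (315 ± 120) than in Sph EPI (15.1 ± 12.8; log2 fold change 4.27 ± 0.68, adjusted p = 0.00156). Of 6 factors that repress or activate cadherin genes 4 were called (GRHL2, GRHL3, TWIST2 and ZEB1), and GRHL2, an activator of epithelial junction genes, was at 28.9 ± 27.9 TPM in M and 0.0676 ± 0.160 in ICM (log2 fold change 8.42 ± 1.34, adjusted p = 0.00141). Of the nectin system 1 of 2 tested genes was called, afadin (AFDN), at 34.8 ± 13.5 TPM in M and 10.25 ± 5.51 in ICM (log2 fold change 1.79 ± 0.43, adjusted p = 0.0304).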

How the data were processed

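Single cells were sequenced with Smart-seq2 and Nextera XT. The authors used scythe and sickle for trimming and HISAT2 2.1.0 for alignment to the Sus scrofa v10.2 build, counted uniquely mapped reads per Ensembl gene with htseq-count, removed poor and outlying cells, and deposited raw counts and a table of TPM values for the 220 cells. Cells come from 8 library pools and no cell pair held identical values. Symbols came from a gene name table and matched 11437 of 22840 entries, holding 75.3% of counts. Embryos were read from cell names, which is less certain for 1 TE and 1 LB EPI cell and not possible for 1 M cell. Replicates are embryos.

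Counts were summed per embryo and population (41 sums of 1 to 19 cells, 6 of them of 1 cell) and tested with edgeR 4.0.16 (quasi-likelihood, TMM, genes over 1 TPM in at least 3 cells, Benjamini-Hochberg threshold 0.05) under R 4.3.3. SE is the log2 fold change divided by the square root of F. Shares carry exact Clopper-Pearson 95% intervals, and ratios of counts exact intervals. Both, like the floor of 3 counts, cover counting error only. Alternatives used DESeq2 1.42.0, limma 3.58.1 on mean log2(TPM + 1), other filters, scalings and samples, the embryo as a block, and leaving out each sum. The study's own pairwise single-cell test was not used, because cells of 1 embryo are not replicates.

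The genes, lists and tests were chosen with earlier results of these data known. In each comparison the genes named are those called, CDH2, and the smallest p up to 3 in all, and the levels of core junction genes are given in any case; 1 gene counted among the 40 is not reported here. Some sums of ICM and TE, and of EPI and HYPO, came from the same embryo. The reported fits did not use this pairing, and the embryo as a block was an alternative only. After removing group means, the median correlation within an embryo was 0.07, 0.02 and 0.04 (ICM with TE, LB, Sph). The fits were also run on simulated data, but the outcome is not given here and no result above rests on it.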

Additional observations from a re-analysis of the deposited data

Results flagged for a closer look

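In 11 of 52 groups of 4 to 10 embryos tested, the highest embryo stood apart from the rest by its gap over the range (Dixon's 95% limit). Chance gives about 1 group in 20 for normally distributed values. That rate does not hold for groups made mostly of zeros, and it was not checked for untransformed TPM values as used here. The 11 groups are therefore not read as an excess over chance. In 3 of the 11 it was the only embryo above 0: CDH7 in TE AC (0.0912 TPM), PCDH17 in TE AB (8.72 TPM) and PCDH7 in LB HYPO AO (0.0217 TPM). In 3 more, with a group median of 0, the embryo stood above few others, namely CDH11 in ICM AG (0.0485 TPM), CDH2 in TE AG (0.364 TPM) and PKP3 in M embryo U (0.248 TPM).

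The others lay in groups where more embryos had signal. CLDN10 in Sph EPI embryo C was at 299 TPM against a group median of 88.7, and CLDN9 in Sph EPI embryo F at 63.9 against 28.2. EPCAM in LB HYPO AN was at 598 against 130, and PCDH17 in LB EPI AP at 2.76 against 0.224. PKP3 in the single TE cell of E6-ER was at 400.3 against 22.5, the cell that had no GATA2, GATA3, DAB2 or KRT8.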

How the results depend on the processing

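Of 42 log2 fold changes followed, 13 were called. Over 868 values in other settings 856 kept their direction and 12, all of uncalled CDH2 changes, reversed, and the 13 called changes kept the call in 200 of 259 and reversed in 0. For LB EPI over Sph EPI the reversed CDH2 values were -0.00589 with limma, -0.88 in the last 4 pools and -0.64 without LB EPI AO (range over embryos left out -0.64 to 1.54). For LB HYPO over Sph HYPO they were -0.21 in the first 4 pools and -0.00807 without Sph HYPO C (range -0.00807 to 0.75). For the change of the EPI and HYPO difference they were 0.46 with limma, 5.29 with the embryo as a block, 1.06 in the last 4 pools, 0.92 without LB EPI AO, 0.0783 and 0.255 without Sph EPI D and E, and 0.333 without Sph HYPO F (range -1.16 to 0.92). In M against TE, PCDH17 had no value in the last 4 pools and without TE AB.

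Counts of called genes moved as follows, and the cause was not tested. With DESeq2 the count was 11 across the 7 populations (24 in edgeR), 3 for ICM and TE, 5 for LB EPI and LB HYPO, 9 for Sph EPI and Sph HYPO, 3 for M and ICM, 2 for M and TE, 5 for ICM and LB EPI, 1 for LB EPI and Sph EPI, 2 for LB HYPO and Sph HYPO and 3 for the change between stages. With limma it was 2 for ICM and TE, 3 for LB EPI and LB HYPO, 2 for M and ICM, 2 for ICM and LB EPI, 1 for LB EPI and Sph EPI and 1 for the change between stages. In the model of all 7 populations it was 3 for ICM and TE, 0 for Sph EPI and Sph HYPO, 2 for M and ICM, 5 for M and TE and 5 for ICM and LB EPI. Sums of at least 2 cells gave 2 for ICM and TE and 1 for M and ICM, and DESeq2 size factors in edgeR gave 2 for LB EPI and LB HYPO. In the first and last 4 pools it was 0 and 0 for ICM and TE, for LB EPI and LB HYPO and for ICM and LB EPI, 1 and 1 for Sph EPI and Sph HYPO, and 2 and 2 for ICM and Sph EPI. The first 4 alone gave 0 for M and TE, 1 for LB EPI and Sph EPI and 1 for LB HYPO and Sph HYPO. Leaving out 1 embryo at a time gave 0 to 1 for LB EPI and LB HYPO, ICM and LB EPI, LB HYPO and Sph HYPO and the change between stages, 0 to 3 for Sph EPI and Sph HYPO, and 3 to 9 for ICM and Sph EPI.

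With the embryo as a block the count of called genes was 0 for LB EPI and LB HYPO and 0 for Sph EPI and Sph HYPO, and CDH2 in ICM over TE stayed called (adjusted p = 0.0465). The block changed no other call between pairs of populations. With DESeq2 size factors the share of all called genes that were higher in the first population went from 68.9% to 58.3% for M over TE and from 29.2% to 18.2% for LB HYPO over Sph HYPO. Over all tested genes the centre of the log2 fold changes then moved from 0.16 to 0.02 for M over TE, from 0.0 to 0.12 for LB EPI over LB HYPO, from 0.57 to 0.44 for Sph EPI over Sph HYPO and from 0.43 to 0.21 for the change between stages. Genes with few counts, such as CDH20, and populations of 3 or 4 embryos limit the precision.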
